A study of Homo sapiens with 4 samples.

Results

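The genes described here are 47 genes of homologous recombination, the Fanconi anaemia pathway and the replication checkpoint, taken by gene name from a list of 47 symbols, each of which matched 1 of the 58735 genes in the files. RNA sequencing gave their transcript levels in 769-P, a human line derived from a renal clear cell carcinoma. Every library came from cells that were otherwise wild type and carried a stably transfected, doxycycline-inducible short hairpin RNA against USP35, a ubiquitin-specific protease. All cells were grown with puromycin. No doxycycline was given to the cells of the 2 control libraries, and those of the 2 doxycycline libraries received 1 µg/ml over 4 days. No library of cells given doxycycline without this hairpin was analysed here, so an effect of doxycycline and an effect of the hairpin cannot be told apart. The labels do not say whether the line was 1 clone, or whether replicates were separate cultures. The p-values therefore reflect spread among these 4 libraries alone, and that spread may be technical.

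USP35, the target of the hairpin, stood at 3.31 and 4.19 FPKM untreated and at 2.11 and 2.54 FPKM on doxycycline, where FPKM counts fragments per kilobase of a gene relative to a size set for the library. Both doxycycline libraries were below both controls, at a ratio of means of 0.62, and the difference did not pass the test over all genes (limma adjusted p = 0.256). The libraries held 16319640 to 18764546 recovered reads. All 7 renal epithelial markers looked at, PAX8, PAX2 and KRT18 among them, had a mean of 1 FPKM or more. Of 10 markers of leukocytes, endothelium and fibroblasts, all were under 1 FPKM in every library, CD3E, PECAM1 and CDH5 were among those listed at 0 throughout, and the summed level of the 10 was 0.844 and 0.934 FPKM untreated and 0.322 and 0.259 FPKM on doxycycline. Mitochondrially encoded genes took 14.6% of reads in doxycycline replicate 2, against 7.44% to 8.50% in the other libraries.

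Homologous recombination repairs a broken chromosome by copying the sister chromatid. Nucleases first resect the broken ends, BRCA1 and BRCA2 with their partners then prepare the single strand for strand exchange, further factors assist the search for the matching strand, and helicases and nucleases take the joined molecules apart. The Fanconi pathway clears crosslinks between DNA strands: a core complex attaches ubiquitin to the FANCD2 and FANCI pair, which brings in the same recombination proteins. The ATR and CHEK1 kinases, with claspin and the timeless complex, sense stalled forks and hold the cell cycle, while ATM and CHEK2 act from double-strand breaks. Many of these genes are transcribed chiefly in late G1 and S phase, under E2F factors.

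Most of the 47 genes were lower after doxycycline. By role, the median difference on the log2(FPKM + 1) scale, doxycycline minus control, ran from -1.04 for FANCD2 and FANCI to -0.13 for the end resection genes. FANCM, at 0.322 FPKM over the 4 libraries, did not reach the mean of 1 FPKM required for testing, which left 46 genes. Of these 46, both doxycycline libraries lay below both controls for 35, above both for 4 and among them for 7. Over all 12029 genes tested, both doxycycline libraries lay below both controls for 28.9% and above both for 24.3%. Over the 46 genes the median of this difference was -0.65, and over all genes tested it was -0.03. The ratio of group means was 0.5 or less for 20 of the 46, against 6.07% of all genes tested.

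No gene of the 46 passed the test over all genes, with limma adjusted p from 0.0573 to 0.919, and 0.0% of all genes tested did. At an unadjusted limma p under 0.05, 27 of the 46 were lower and 0 higher, against 11.9% and 6.47% of all genes tested. With limma-voom on recovered reads, 7 of the 46 and 198 of all genes had an adjusted p under 0.05. The unadjusted count was 15 without control replicate 1 and 18 without control replicate 2, where 4.02% and 5.5% of all genes were lower. The adjusted count was 27 lower without doxycycline replicate 1, where 3942 of all genes passed, and 21 lower without doxycycline replicate 2, where 1605 passed. It was 0 without either control, and each such fit assumes that the lone library varies like the pair in the other group. With FPKM rescaled without mitochondrially encoded genes, the shares of all genes lower and higher at an unadjusted p under 0.05 were 9.11% and 9.67%, while 26 of the 46 were lower and 0 higher. On that scale both doxycycline libraries lay below both controls for 23.4% of all genes and above for 31.2%, and for 35 and 5 of the 46.

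**Figure D1:**
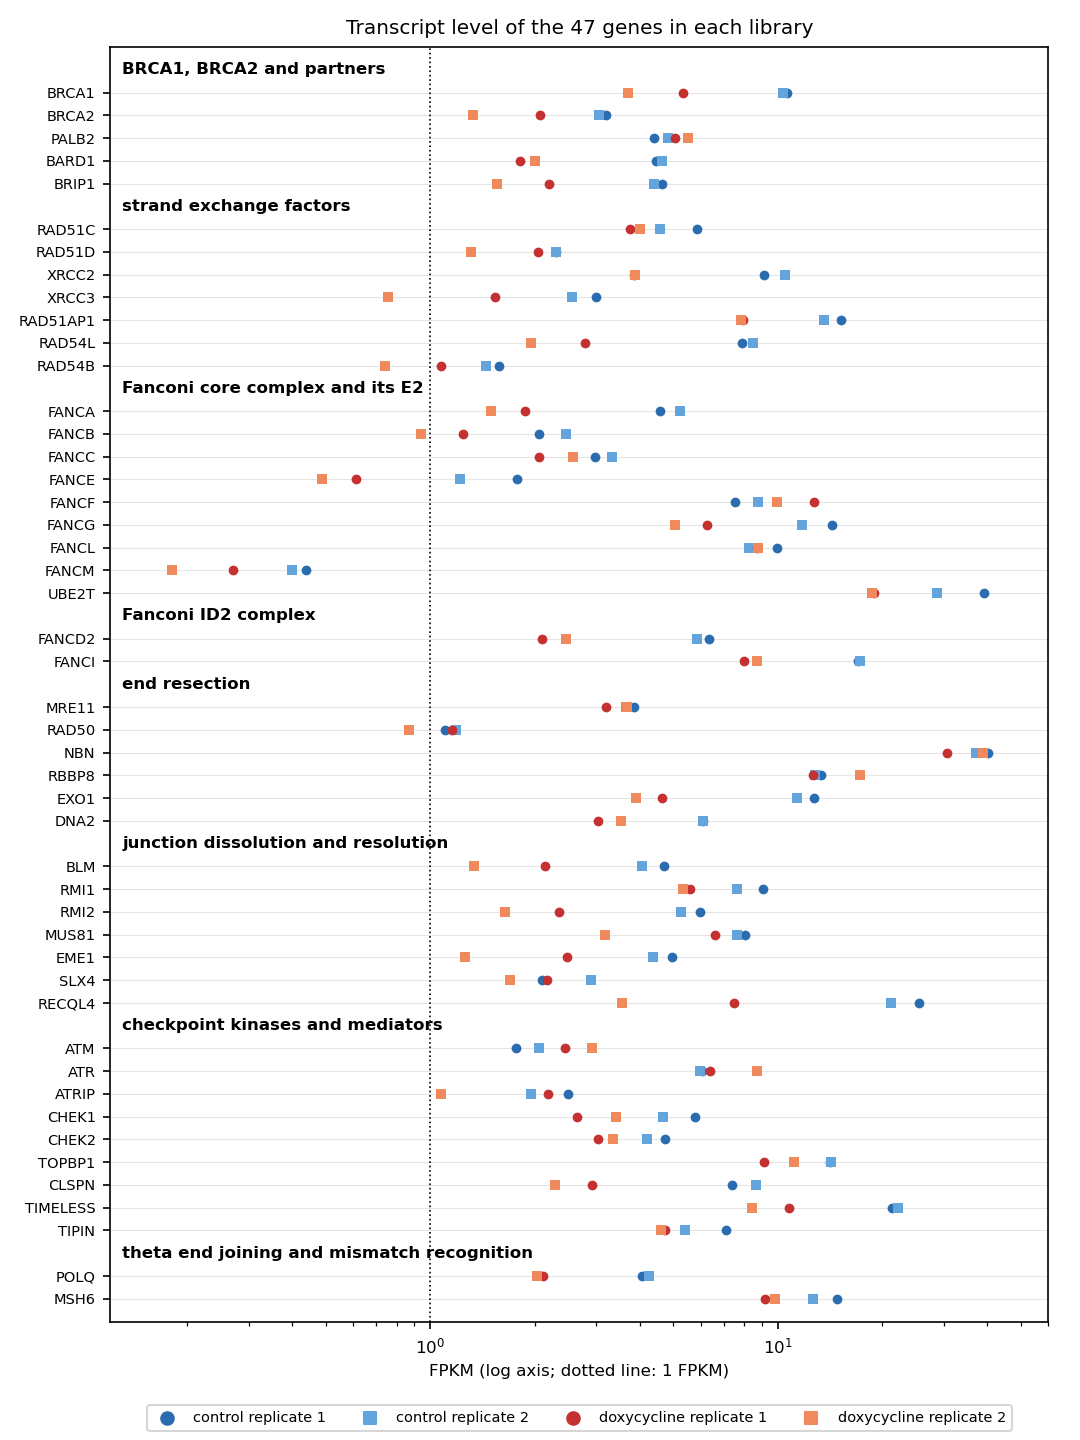
FPKM (log axis) of the 47 genes in each of the 4 libraries, grouped by role, with controls in blue and doxycycline libraries in red and orange. Both doxycycline libraries lie left of both controls for most rows, while PALB2, FANCF, ATM and ATR lie to the right, and FANCM lies left of the dotted line at 1 FPKM.

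Markers of proliferation moved with these genes. All 7 examined lay below both controls in both doxycycline libraries, against 28.9% of all genes tested. Their median log2 difference was -1.20, and their summed level was 516 and 444 FPKM untreated and 198 and 212 FPKM on doxycycline. MCM2, a subunit of the replicative helicase, had the lowest p of the 7, at 27.8 and 26.7 FPKM untreated and 8.82 and 6.85 FPKM on doxycycline (log2 difference -1.69, limma adjusted p = 0.0573). The part of this shift in the levels of the repair genes was not tested. In RNA from whole cultures, fewer cells in S phase and less RNA per cell cannot be told apart.

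The start regions of these genes were searched for E2F sites, because many of the genes moved together. RefSeq start windows of 300 bases (GRCh38.p14, 250 before to 50 after each start) were found for 41 of the 47 genes. The 8-base words TTTCCCGC, TTTCGCGC, TTTGGCGC and TTTGCCGC, read on both strands, occurred in a window of 10 of the 41 genes (24.4%). They occurred in 3.31% of all 35116 windows, and in 7.12% of the 8471 tested genes with a window. In 7 of the 10 genes a word began within 32 bases of a start. The windows below show this position for 3 genes from 60 bases before to 30 after the start, then for 4 genes in 30 bases around the word, then 2 genes with no word that were not lower, with the word in capitals and each strand read 5′ to 3′. The last 2 were chosen after their values were seen and are not typical. RAD54L and BRCA1 also have a window with no word and were lower, with log2 differences of -1.45 and -1.08.
CLSPN (chr1:35769949-35770038, minus strand): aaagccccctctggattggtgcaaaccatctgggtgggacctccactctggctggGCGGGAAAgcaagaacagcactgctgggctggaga
FANCD2 (chr3:10026377-10026466, plus strand): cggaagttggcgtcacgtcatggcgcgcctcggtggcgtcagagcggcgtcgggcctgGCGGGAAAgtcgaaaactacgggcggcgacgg
XRCC2 (chr7:152676112-152676201, minus strand): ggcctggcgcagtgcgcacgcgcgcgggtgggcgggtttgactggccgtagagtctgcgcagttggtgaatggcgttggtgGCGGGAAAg
TOPBP1 (chr3:133661930-133661959, minus strand): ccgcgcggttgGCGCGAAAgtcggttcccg
EXO1 (chr1:241848197-241848226, plus strand): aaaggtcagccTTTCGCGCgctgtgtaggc
MSH6 (chr2:47783137-47783166, plus strand): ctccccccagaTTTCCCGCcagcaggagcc
RMI1 (chr9:83980762-83980791, plus strand): ggcgcgagcgcGCGGCAAAtcgggcgggaa
ATR (chr3:142578704-142578793, minus strand): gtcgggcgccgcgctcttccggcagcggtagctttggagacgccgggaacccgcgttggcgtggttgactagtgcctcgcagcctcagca
PALB2 (chr16:23641281-23641370, minus strand): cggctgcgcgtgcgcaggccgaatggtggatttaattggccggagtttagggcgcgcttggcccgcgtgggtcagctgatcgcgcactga
In CLSPN, FANCD2 and XRCC2 the same word, GCGGGAAA as read on the gene's strand, began 5 bases before, 2 bases before and 21 bases after the start. The other genes with a word were FANCA, FANCC and TIPIN, farther from a start, and in TIPIN the words on the opposite strands overlap each other. The 10 genes with a word had a median log2 difference of -0.82, and the 30 tested genes with a window and no word had -0.64. CCAAT, the core of the NF-Y site, occurred for 22 of 41 genes (53.7%) against 43.8% of tested genes, with medians of -0.65 with it and -0.63 without. The cell cycle homology words TTTGAA and TTCGAA occurred for 5 of 41 (12.2%) against 14.9%, and the palindromic NRF1 site without a mismatch for 2 of 41 (4.88%), RBBP8 and SLX4, against 2.87%. A match is a description of these letters and not evidence of binding.

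Among BRCA1, BRCA2 and their partners, 4 of 5 genes were lower in both doxycycline libraries and PALB2 was higher. Over all genes tested, 28.9% were lower and 24.3% higher in both. BRCA1, the ubiquitin ligase and tumour suppressor that promotes resection and loads the BRCA2 complex (ENSG00000012048, GRCh38 chr17:43044295-43170245, minus strand), stood at 10.6 and 10.3 FPKM untreated and 5.32 and 3.70 FPKM on doxycycline. The mean went from 10.5 ± 0.233 to 4.51 ± 1.15 FPKM (± SD of 2 libraries) (log2 difference -1.08, SE 0.21, limma adjusted p = 0.0819). Its obligate RING partner BARD1 was at 4.46 and 4.66 FPKM untreated and 1.82 and 2.01 FPKM on doxycycline, with both doxycycline libraries at less than any control (log2 difference -0.93, SE 0.18, limma adjusted p = 0.0789). BRIP1, the helicase that binds the BRCA1 BRCT repeats, was at 4.63 and 4.40 FPKM untreated and 2.20 and 1.56 FPKM on doxycycline (log2 difference -0.95, SE 0.20, limma adjusted p = 0.0943). BRCA2, the tumour suppressor that acts on resected single strands, was lower to a lesser degree, at 3.20 and 3.05 FPKM untreated and 2.07 and 1.33 FPKM on doxycycline, with doxycycline replicate 2 the lowest library (log2 difference -0.63). PALB2, which bridges BRCA1 to BRCA2, went the other way, at 4.40 and 4.83 FPKM untreated and 5.08 and 5.51 FPKM on doxycycline. Its difference of 0.17 was the size of its standard error of 0.17, and it became 0.02 once GC content and length were adjusted for.

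All 7 strand exchange factors were lower in both doxycycline libraries, by unequal amounts, against 28.9% of all genes tested. RAD54L, the ATPase that drives strand exchange (ENSG00000085999, GRCh38 chr1:46247688-46278473, plus strand), was at 7.87 and 8.46 FPKM untreated and 2.78 and 1.96 FPKM on doxycycline. Its mean went from 8.16 ± 0.415 to 2.37 ± 0.585 FPKM (± SD of 2 libraries), a ratio of 0.29 (log2 difference -1.45, SE 0.20, limma adjusted p = 0.0573). XRCC2, a subunit of the BCDX2 complex, was at 9.13 and 10.5 FPKM untreated and 3.86 and 3.88 FPKM on doxycycline, and the doxycycline libraries lay closer to each other than the controls did (log2 difference -1.15, SE 0.18, limma adjusted p = 0.0595). RAD51AP1, which stimulates strand pairing, was at 15.2 and 13.6 FPKM untreated and 7.96 and 7.81 FPKM on doxycycline (ratio 0.548). XRCC3, the partner of RAD51C, was at 2.99 and 2.56 FPKM untreated and 1.53 and 0.756 FPKM on doxycycline, with doxycycline replicate 2 well under replicate 1. RAD51C, which sits in the complexes of XRCC2 and of XRCC3, was at 5.84 and 4.58 FPKM untreated and 3.75 and 4.02 FPKM on doxycycline, and RAD51D, which joins it in BCDX2, at 2.30 and 2.31 FPKM untreated and 2.04 and 1.31 FPKM on doxycycline. Both of these had ratios above 0.7 and unadjusted limma p of 0.124 and 0.201. RAD54B, the second RAD54 gene, was near the filter at 1.58 and 1.45 FPKM untreated and 1.07 and 0.740 FPKM on doxycycline.

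In the Fanconi core complex the genes parted. FANCA, a scaffold subunit, was at 4.59 and 5.22 FPKM untreated and 1.87 and 1.497 FPKM on doxycycline (ratio 0.344, log2 difference -1.14, SE 0.19, limma adjusted p = 0.0688). FANCG, which binds FANCA directly, was at 14.3 and 11.7 FPKM untreated and 6.24 and 5.05 FPKM on doxycycline (ratio 0.433, log2 difference -1.08, SE 0.20, limma adjusted p = 0.0773). FANCB, the scaffold of the catalytic module, was at 2.05 and 2.46 FPKM untreated and 1.24 and 0.942 FPKM on doxycycline, and FANCE, which contacts FANCD2, at 1.78 and 1.22 FPKM untreated and 0.613 and 0.487 FPKM on doxycycline. These 4 genes, and also FANCC and UBE2T, were lower in both doxycycline libraries. That made 6 of the 8 genes tested here, against 28.9% of all genes tested. FANCE rested on 57 to 76 reads in a control and 24 to 31 in a doxycycline library. FANCC, the partner of FANCE, was at 2.98 and 3.33 FPKM untreated and 2.06 and 2.57 FPKM on doxycycline and had a ratio of 0.733. FANCL, the ubiquitin ligase subunit itself, was at 9.93 and 8.24 FPKM untreated and 8.71 and 8.78 FPKM on doxycycline, where the groups overlapped. Its log2 difference of -0.04 became 0.02 under quantile normalization, 0.04 with FPKM rescaled without mitochondrially encoded genes and 0.08 without control replicate 1. FANCF, the adaptor subunit, was higher, at 7.52 and 8.79 FPKM untreated and 12.7 and 9.93 FPKM on doxycycline (log2 difference 0.42, SE 0.21, limma adjusted p = 0.33). UBE2T, the conjugating enzyme that works with FANCL, was one of the more abundant of the 47 and stood at 39.2 and 28.6 FPKM untreated and 18.9 and 18.7 FPKM on doxycycline (ratio 0.554). FANCM, the translocase that anchors the complex on DNA, was at 0.439 and 0.400 FPKM untreated and 0.270 and 0.181 FPKM on doxycycline and was not tested.

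Both genes of the substrate pair of the core complex were lower in both doxycycline libraries, against 28.9% of all genes tested. FANCD2 (ENSG00000144554, GRCh38 chr3:10026414-10101930, plus strand) was at 6.33 and 5.85 FPKM untreated and 2.10 and 2.46 FPKM on doxycycline. Its mean went from 6.09 ± 0.34 to 2.28 ± 0.256 FPKM (± SD of 2 libraries) (log2 difference -1.11, SE 0.18, limma adjusted p = 0.0659). FANCI was at 17.0 and 17.3 FPKM untreated and 8.01 and 8.68 FPKM on doxycycline (log2 difference -0.96, SE 0.18, limma adjusted p = 0.0773). In both genes the doxycycline libraries were close together, with replicate 2 slightly above replicate 1. FANCD2 relative to FANCI was 0.372 and 0.339 untreated and 0.261 and 0.283 on doxycycline.

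Among the genes of end resection, the long-range nucleases were lower, and the groups overlapped for every gene of the break-sensing complex. EXO1, the exonuclease of long-range resection (ENSG00000174371, GRCh38 chr1:241847967-241895148, plus strand), was at 12.7 and 11.3 FPKM untreated and 4.64 and 3.90 FPKM on doxycycline, a ratio of 0.355 (log2 difference -1.31, SE 0.18, limma adjusted p = 0.0573). DNA2, the other long-range nuclease, was at 6.10 and 6.08 FPKM untreated and 3.03 and 3.53 FPKM on doxycycline (log2 difference -0.73, SE 0.17, limma adjusted p = 0.125). The MRE11, RAD50 and NBN genes encode the complex that finds the break and makes the first cut. MRE11 was at 3.84 and 3.66 FPKM untreated and 3.21 and 3.69 FPKM on doxycycline, RAD50 at 1.10 and 1.19 FPKM untreated and 1.15 and 0.866 FPKM on doxycycline, and NBN at 40.2 and 37.0 FPKM untreated and 30.6 and 38.9 FPKM on doxycycline. The groups overlapped for these 3, with log2 differences of -0.10, -0.10 and -0.16, and the sign turned for RAD50 without doxycycline replicate 2 and for NBN without doxycycline replicate 1, to 0.01 in each. RBBP8, or CtIP, which activates MRE11, was at 13.3 and 12.8 FPKM untreated and 12.6 and 17.2 FPKM on doxycycline, with doxycycline replicate 1 just below both controls and replicate 2 above them, and its log2 difference of 0.16 became -0.04 without that library.

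Of the 7 genes grouped under junction dissolution and resolution, which are helicases, nucleases and their partners, 6 were lower in both doxycycline libraries. Over all genes tested 28.9% were. RECQL4, a helicase of the same family as BLM that also acts in origin firing (ENSG00000160957, GRCh38 chr8:144511288-144517845, minus strand), had the lowest ratio of the 47. It stood at 25.5 and 21.1 FPKM untreated and 7.48 and 3.57 FPKM on doxycycline, a ratio of 0.237 (log2 difference -1.96, SE 0.32, limma adjusted p = 0.0682). The doxycycline libraries differed more than 2-fold from each other, and both were under every control. BLM, the helicase of the dissolvasome, was at 4.70 and 4.07 FPKM untreated and 2.14 and 1.33 FPKM on doxycycline (ratio 0.396). Its partner RMI2 was at 5.97 and 5.28 FPKM untreated and 2.34 and 1.64 FPKM on doxycycline (log2 difference -1.16, SE 0.20, limma adjusted p = 0.0712), and its other partner RMI1 at 9.04 and 7.65 FPKM untreated and 5.58 and 5.32 FPKM on doxycycline (ratio 0.654). EME1, the regulatory subunit of the MUS81 nuclease, was at 4.96 and 4.38 FPKM untreated and 2.47 and 1.26 FPKM on doxycycline (ratio 0.4), and MUS81 at 8.07 and 7.64 FPKM untreated and 6.60 and 3.18 FPKM on doxycycline (ratio 0.622). MUS81 was low mainly in doxycycline replicate 2. SLX4, the scaffold of the structure-selective nucleases, was at 2.10 and 2.91 FPKM untreated and 2.16 and 1.70 FPKM on doxycycline, where the groups overlapped.

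Among the checkpoint genes, the mediators at the fork were lower and the apical kinases ATR and ATM were higher in both doxycycline libraries. CLSPN, or claspin, which holds CHEK1 for activation by ATR (ENSG00000092853, GRCh38 chr1:35720218-35769967, minus strand), was at 7.40 and 8.64 FPKM untreated and 2.91 and 2.28 FPKM on doxycycline, a ratio of 0.324 (log2 difference -1.33, SE 0.19, limma adjusted p = 0.0573). TIMELESS, which travels with the replication fork, was at 21.3 and 22.2 FPKM untreated and 10.8 and 8.40 FPKM on doxycycline (log2 difference -1.11, SE 0.20, limma adjusted p = 0.0748). Its partner TIPIN was at 7.09 and 5.40 FPKM untreated and 4.73 and 4.62 FPKM on doxycycline, a smaller shift (ratio 0.748). CHEK1, the effector kinase of ATR, was at 5.79 and 4.66 FPKM untreated and 2.64 and 3.43 FPKM on doxycycline (log2 difference -0.63, SE 0.20, limma adjusted p = 0.2), and CHEK2, the effector of ATM, at 4.74 and 4.20 FPKM untreated and 3.03 and 3.37 FPKM on doxycycline (log2 difference -0.38). TOPBP1, the activator of ATR, was at 14.1 and 14.2 FPKM untreated and 9.13 and 11.1 FPKM on doxycycline, with a log2 difference of -0.45. ATR was at 6.03 and 5.96 FPKM untreated and 6.38 and 8.70 FPKM on doxycycline and ATM at 1.76 and 2.05 FPKM untreated and 2.44 and 2.93 FPKM on doxycycline, and both doxycycline libraries were above both controls for each. Neither difference passed, at 0.27 (limma adjusted p = 0.5) and 0.34 (limma adjusted p = 0.4), and 24.3% of all genes tested were separated in that direction. ATRIP, the partner that brings ATR to single-stranded DNA, was at 2.48 and 1.94 FPKM untreated and 2.18 and 1.08 FPKM on doxycycline, with doxycycline replicate 1 among the controls.

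POLQ, the polymerase of theta-mediated end joining, which competes with recombination for resected ends, was at 4.06 and 4.26 FPKM untreated and 2.11 and 2.03 FPKM on doxycycline (ratio 0.497, log2 difference -0.75, SE 0.18, limma adjusted p = 0.12). MSH6, a mismatch-recognition protein, was at 14.8 and 12.6 FPKM untreated and 9.18 and 9.81 FPKM on doxycycline (ratio 0.693, log2 difference -0.48, SE 0.19, limma adjusted p = 0.257). Both genes were lower in both doxycycline libraries, as 28.9% of all genes tested were.

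The level of one partner relative to the other was then taken within each library, where library size cancels. A shift that goes with GC content, described below, does not cancel where partners differ in GC content. These 22 pairs were chosen after the values were seen and are given as a description, with no test. BRCA2 relative to PALB2 was 0.729 and 0.632 untreated and 0.408 and 0.241 on doxycycline. The DNA2 to RBBP8 ratio was 0.458 and 0.476 untreated and 0.24 and 0.206 on doxycycline, and the UBE2T to FANCL ratio was 3.94 and 3.48 untreated and 2.17 and 2.13 on doxycycline. In these pairs a component lower with doxycycline sits beside one that was not. The CHEK1 to ATR ratio was 0.959 and 0.782 untreated and 0.413 and 0.394 on doxycycline, and the CHEK2 to ATM ratio 2.69 and 2.05 untreated and 1.24 and 1.15 on doxycycline, so both effector kinases were low relative to the kinase above them. EME1 relative to MUS81 was 0.614 and 0.572 untreated and 0.375 and 0.396 on doxycycline, and RMI2 relative to RMI1 0.66 and 0.691 untreated and 0.42 and 0.308 on doxycycline. By contrast, the BRCA1 to BARD1 ratio was 2.39 and 2.22 untreated and 2.93 and 1.84 on doxycycline and the NBN to MRE11 ratio was 10.5 and 10.1 untreated and 9.53 and 10.5 on doxycycline, with the groups overlapping in both.

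**Figure D2:**
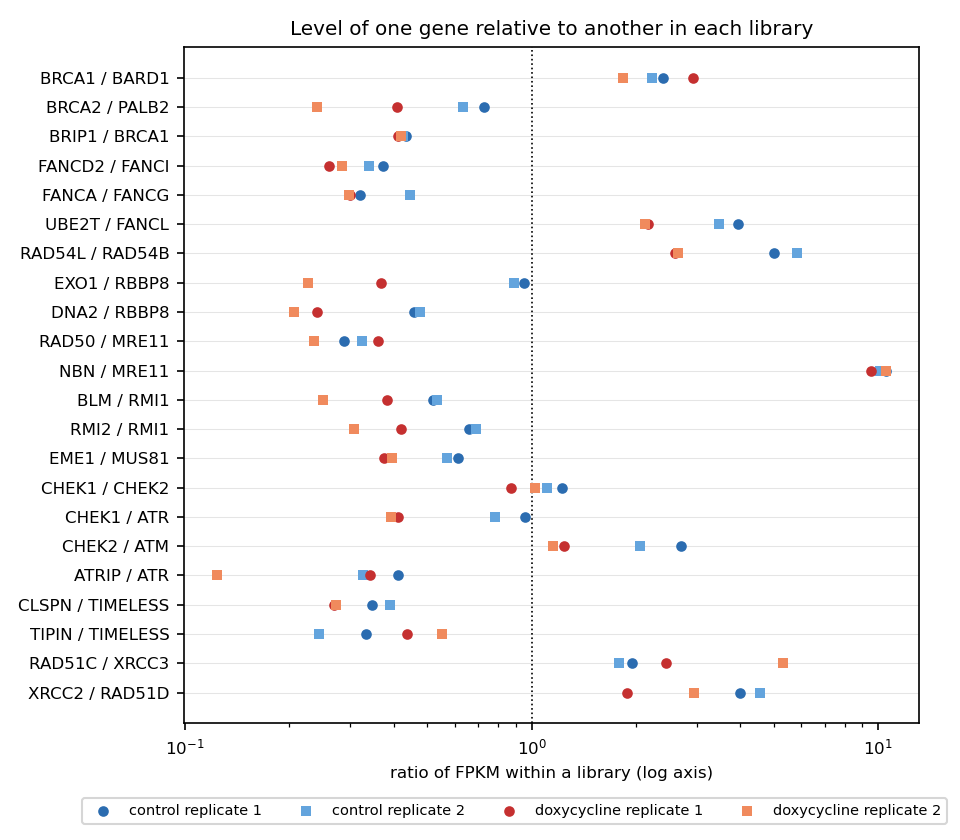
Ratio of the FPKM of one gene to that of another within each library (log axis) for 22 pairs, controls in blue and doxycycline libraries in red and orange. UBE2T relative to FANCL lies between 2.13 and 2.17 with doxycycline and between 3.48 and 3.94 in the controls, while BRCA1 relative to BARD1 overlaps.

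The doxycycline libraries did not agree in size for every gene. The median log2 difference of the 46 genes was -0.58 in doxycycline replicate 1 and -0.74 in replicate 2. Between the 2 doxycycline libraries 4 of the 46 differed by at least 2-fold, and between the controls 0 did, with 1.46 as the largest ratio there. The 4 were RECQL4, MUS81, XRCC3 and ATRIP, each lower in replicate 2, chosen after their values were seen. Replicate 2 was the lower library for 28 of the 46, against 50.3% of all genes tested. Across the 46 genes, the difference between replicate 2 and replicate 1 went with transcript GC content (Pearson's r = -0.62, Spearman's rho = -0.47, n = 46 genes that share the same libraries), and over 12024 genes tested r was -0.46 and rho -0.54. The difference of doxycycline from control also went with GC content. There r was -0.41 and rho -0.36 across the 46 genes, and -0.32 and -0.35 over the 12024. Once each library was adjusted for GC content and length, the median of the 46 was -0.74, and 14 were lower at a limma adjusted p under 0.05, among 367 of all genes.

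**Figure D3:**
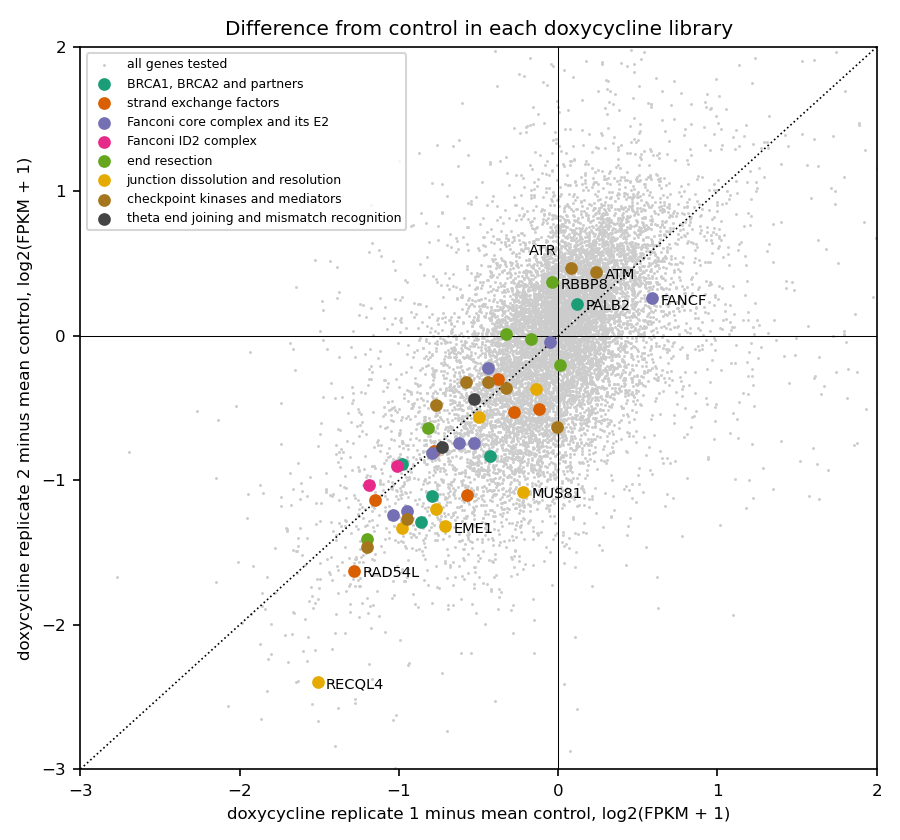
Difference from the mean control on the log2(FPKM + 1) scale in doxycycline replicate 1 (x axis) and replicate 2 (y axis) for the 46 genes tested, coloured by role, over all genes tested in grey, with 105 genes outside the axes. Most coloured points lie in the lower left, with RECQL4 lowest and MUS81 low mainly in replicate 2.

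Several of the 47 genes lie head to head with another gene, their starts within 1000 bases on opposite strands, which allows neighbours of 1 locus to be compared. Such a neighbour was annotated for 25 of the 47, and 14 neighbours of tested genes were themselves tested. The most upstream annotated start of every gene was used, and which start served in these cells was not examined. For TIPIN it lies at chr15:66386746, outside the window that held its E2F words (chr15:66356636-66356935). The median log2 difference was -0.58 for the 14 genes of the set and -0.02 for their neighbours. Of the 10 pairs whose repair gene was lower in both doxycycline libraries, the neighbour was likewise lower in 3, higher in 4 and overlapping in 3. Of all 14 neighbours, 3 were below both controls, 4 above and 7 overlapping. Over all genes tested 28.9% were below and 24.3% above, so the split of the neighbours is much like that of any genes. EME1 and MRPL27, a mitochondrial ribosomal protein gene, start 6 bases apart, and MRPL27 was at 11.7 and 9.39 FPKM untreated, against 10.6 and 8.82 FPKM with doxycycline (ratio 0.922, against 0.4 for EME1). FANCB and MOSPD2 start 372 bases apart, and MOSPD2 was at 4.11 and 3.70 FPKM untreated, against 6.08 and 5.51 FPKM (ratio 1.49, against 0.484 for FANCB). BRCA1's neighbour NBR1 was at 13.1 and 14.1 FPKM untreated, against 18.8 and 25.8 FPKM, above both controls. CHEK2's neighbour HSCB, an iron-sulfur cluster chaperone, was at 4.92 and 4.01 FPKM untreated, against 6.51 and 6.31 FPKM, and RAD51AP1's neighbour C12orf4 at 6.15 and 5.10 FPKM untreated, against 6.56 and 7.23 FPKM, both above both controls. RECQL4's neighbour LRRC14 was lower, at 7.65 and 7.61 FPKM untreated, against 6.12 and 5.94 FPKM, a ratio of 0.791 beside 0.237 for RECQL4. HNRNPK beside RMI1 and ZFYVE21 beside XRCC3 were the other neighbours lower in both libraries. None of the 14 neighbours passed the test over all genes.

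**Figure D4:**
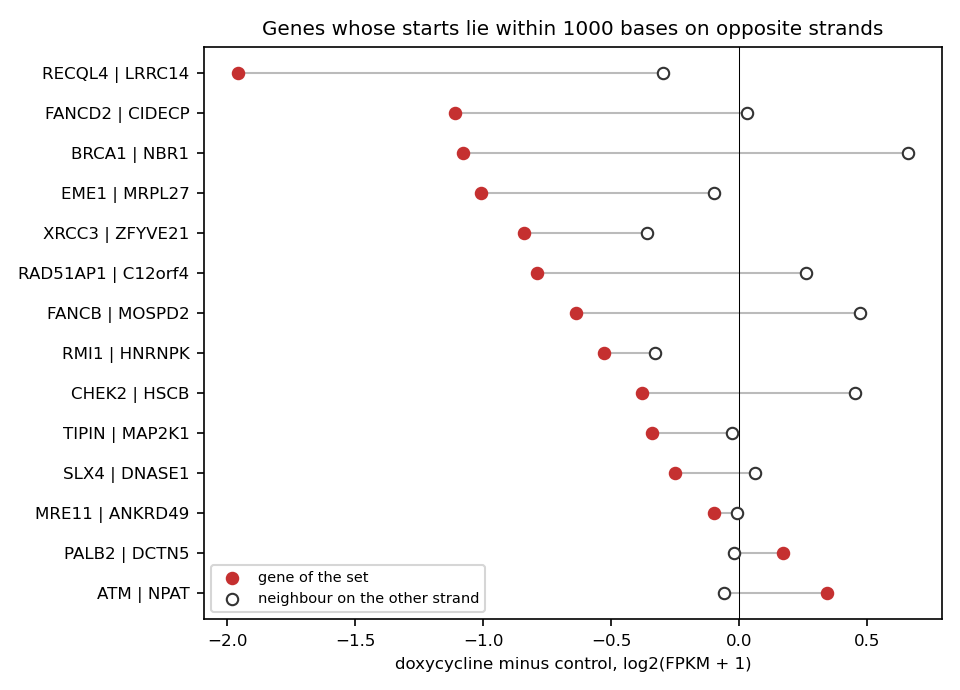
Log2 difference, doxycycline minus control, of 14 genes of the set (filled red) and of the gene that starts within 1000 bases on the other strand (open circles), ordered by the gene of the set. The open circles lie near or above 0 for most pairs, with LRRC14, HNRNPK and ZFYVE21 to the left.

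Other repair genes, from lists written for this comparison, had median log2 differences between -0.37 and 0.21. Of 22 other recombination genes tested, 10 were below and 4 above both controls in both doxycycline libraries, against 28.9% and 24.3% of all genes. Their median log2 difference was -0.26. TONSL, which binds new histones at stalled forks, had the lowest p, at 17.4 and 15.3 FPKM untreated and 4.59 and 2.30 FPKM on doxycycline (log2 difference -2.01, SE 0.28, limma adjusted p = 0.0573), and HELQ, a repair helicase, had the lowest p among those higher, at 1.80 and 2.04 FPKM untreated and 2.61 and 2.62 FPKM on doxycycline (log2 difference 0.31). The 12 Fanconi partners had a median of -0.24, with CENPX, a histone-fold partner of FANCM, at 25.8 and 18.0 FPKM untreated and 12.5 and 8.38 FPKM on doxycycline and WDR48, which activates the USP1 deubiquitinase, at 4.18 and 4.62 FPKM untreated and 5.42 and 5.86 FPKM on doxycycline. Checkpoint clamp genes and targets (13) had a median of -0.37, with CDC25A, the phosphatase CHEK1 acts on, at 4.98 and 4.39 FPKM untreated and 2.52 and 1.67 FPKM on doxycycline and RAD17, the clamp loader, at 7.68 and 6.32 FPKM untreated and 10.6 and 11.2 FPKM on doxycycline. For end joining and 53BP1 genes (16) the median was -0.05, and it became 0.05 over genes averaging 5 FPKM or more and 0.02 with FPKM rescaled without mitochondrially encoded genes. PAXX, a Ku-binding factor, was at 30.3 and 21.9 FPKM untreated and 15.3 and 7.99 FPKM on doxycycline, and LIG4, the ligase of that pathway, at 8.88 and 8.36 FPKM untreated and 9.45 and 12.3 FPKM on doxycycline.

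Mismatch repair genes (6) had a median of 0.07, which became -0.07 once GC content and length were adjusted for, with PMS2, whose reads can be shared with its pseudogenes, at 8.76 and 8.68 FPKM untreated and 12.3 and 15.6 FPKM on doxycycline. The BRCA1-A complex (5) had a median of 0.21, with BABAM2 at 12.1 and 11.6 FPKM untreated and 16.6 and 21.8 FPKM on doxycycline and BRCC3, its deubiquitinase, at 11.5 and 10.0 FPKM untreated and 6.72 and 9.94 FPKM on doxycycline. Excision repair genes (19) had a median of -0.25, with UNG, the uracil glycosylase, at 33.2 and 27.4 FPKM untreated and 17.3 and 15.6 FPKM on doxycycline and XPC, a damage sensor, at 5.57 and 6.75 FPKM untreated and 8.36 and 9.66 FPKM on doxycycline. At an unadjusted limma p under 0.05, the numbers lower were 8 of 22, 1 of 12, 4 of 13, 1 of 16, 0 of 6, 0 of 5 and 5 of 19 in the order given, against 11.9% of all genes tested. Of the checkpoint clamp, mismatch repair, BRCA1-A and excision repair lists 1 gene each was higher at that p, and of the other recombination, Fanconi partner and end joining lists 0 were, against 6.47% of all genes tested. In these lists 0 genes had a limma adjusted p under 0.05.

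**Figure D5:**
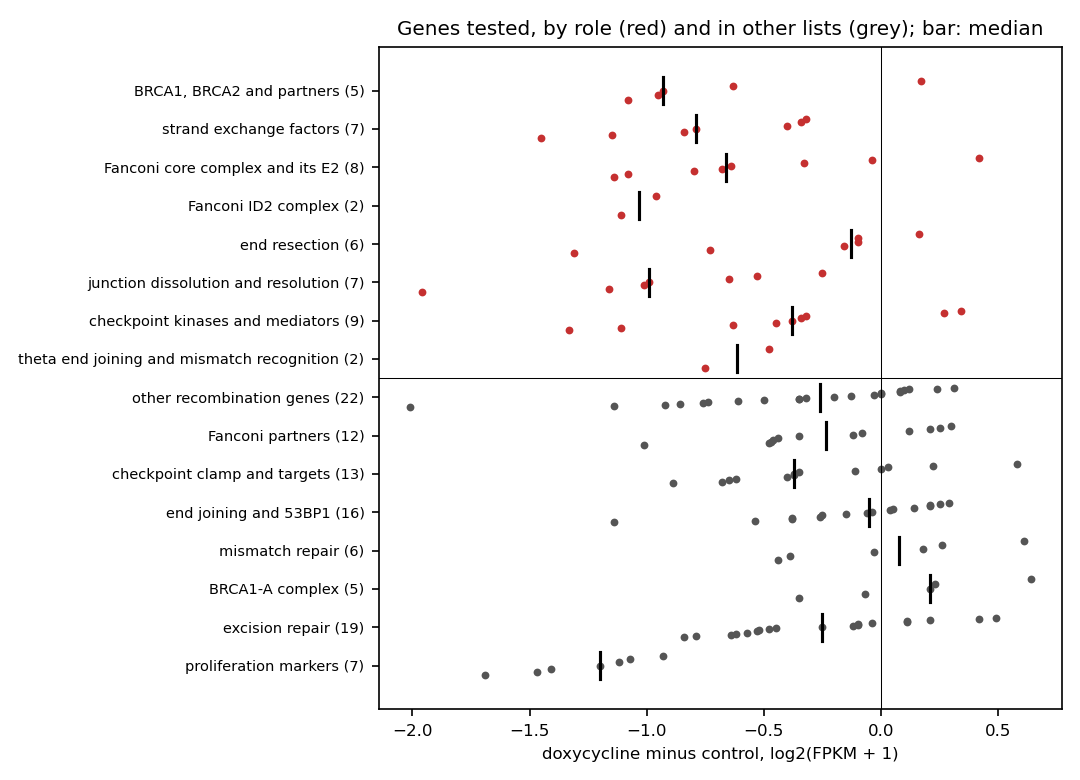
Log2 difference, doxycycline minus control, of each gene tested, by role in the set (red) and in other lists (grey), with the number of genes in brackets and the median as a bar. The medians of the red groups run from -1.04 to -0.13, and those of the grey lists from -1.20 for proliferation markers to 0.21 for the BRCA1-A complex.

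Some of these values are limited by how genes overlap in the annotation. The sources used here do not give how reads in shared exons were assigned, and the overlapping genes named were chosen after their values were seen. Among the 47 genes, 4 share at least 20% of their exonic bases with a gene on the same strand: RAD50 shares 79.7% with AC116366.3, RAD54B 59.1% with FSBP, ATRIP 27.9% with TREX1 and TIPIN 21.0% with RPL9P25. TREX1 and RPL9P25 were listed at 0 in every library, AC116366.3 held 1 to 4 reads, and FSBP held 24 to 44 reads. If reads in shared exons were left out, the levels given for these 4 genes are too low. On the other strand, KLC1 covers 76.7% of XRCC3, LRRC41 25.1% of RAD54L and ZNF276 23.6% of FANCA. Strandedness was not given, so reads of those pairs cannot be told apart. KLC1 stood at 1.49 and 1.64 FPKM untreated and 1.66 and 1.10 FPKM on doxycycline, ZNF276 at 2.01 and 1.90 FPKM untreated and 1.89 and 1.18 FPKM on doxycycline and LRRC41 at 16.2 and 17.4 FPKM untreated and 19.4 and 17.5 FPKM on doxycycline. KLC1 and ZNF276 were lowest in doxycycline replicate 2, as XRCC3 and FANCA were. Below that share, genes on the other strand cover 16.4% of EME1, where LRRC59 was at 65.5 and 57.5 FPKM untreated and 45.4 and 39.7 FPKM on doxycycline, and 14.1% of MUS81, where CFL1 was at 148 and 121 FPKM untreated and 91.8 and 63.3 FPKM on doxycycline. LRRC59 and CFL1 were lower in both doxycycline libraries, as EME1 and MUS81 were. Genes on the other strand also cover 19.7% of FANCL, 16.4% of ATR and 16.2% of MSH6. VRK2, over FANCL, was at 6.69 and 6.85 FPKM untreated and 6.25 and 5.97 FPKM on doxycycline. FBXO11, over MSH6, was higher where MSH6 was lower, at 5.32 and 5.69 FPKM untreated and 6.31 and 7.21 FPKM on doxycycline. AC109992.1, over ATR, was at 0 FPKM in every library. The part of these overlaps in the levels was not tested.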

How the data were processed

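Each of the 4 libraries came as 1 table of 58735 genes with values deposited as FPKM, per the file headers, with the gene length used. The submitters' processing notes list HISAT2 2.0.5, featureCounts 1.5.0-p3 and also limma, without saying what each did. Genome build, strandedness and filters are not given in the sources used here. Gene coordinates in the files were those of GENCODE 29 on GRCh38, which served for overlaps, neighbours and GC content. FPKM multiplied by length fell on whole multiples of 1 step for 100.0% of genes (tolerance 0.02 reads), which gave back whole reads and depth. The library size behind the FPKM was 97.21% and 101.0% of the recovered reads in control replicates 1 and 2. It was 107.5% and 97.6% in doxycycline replicates 1 and 2. How that size was set is not given in the sources used here.

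The 12029 genes averaging 1 FPKM or more were compared on the log2(FPKM + 1) scale with limma-trend (limma 3.58.1, R 4.3.3), two-sided, 2 residual degrees of freedom, Benjamini-Hochberg adjustment over all of them and a threshold of 0.05. This scale understates changes of low genes. Ratios are of group mean FPKM. Alternatives were another pseudocount, filters, scalings, limma-voom on recovered reads, a replicate block and leaving out each library, and an adjustment for GC content and length that was added after seeing the data. The 47 genes and all lists were chosen with earlier results of these data known. Named genes were all 47, USP35, head-to-head neighbours, and from each other list the gene with the lowest p in each direction, except items that are not reported here. The symbols RADX and HROB were matched through gene identifiers. Python 3.11.15 and pandas 2.3.3 handled tables.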

Additional observations from a re-analysis of the deposited data

How the results depend on the processing

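Of the 46 genes tested, 42 kept the sign of their difference under every alternative in which they were tested, and FANCL, RAD50, NBN and RBBP8 did not. FANCL became 0.02 under quantile normalization and 0.04 without mitochondrially encoded genes, and RBBP8 became -0.0031 once GC content and length were adjusted for. Leaving out 1 library gave -0.17 to 0.08 for FANCL, -0.20 to 0.01 for RAD50, -0.33 to 0.01 for NBN and -0.04 to 0.37 for RBBP8. The end joining median became 0.05 in genes averaging 5 FPKM or more and 0.02 without mitochondrially encoded genes, and the mismatch repair median -0.07 after the adjustment. The median of the set was -0.84 with a pseudocount of 0.1 FPKM, -0.84 with limma-voom on recovered reads and -0.79 in genes averaging 5 FPKM or more, where 21 genes were left. At an adjusted p under 0.05, all genes called numbered 261 in genes averaging 5 FPKM or more, 242 over protein-coding genes, 198 with limma-voom and 367 after the adjustment, of which genes of the set, all lower, made up 9, 9, 7 and 14. With replicate number as a block they were 784 and 16. The labels do not say that a number marks a shared culture or day, and over genes the deviations of same-numbered libraries correlated at 0.207, from 2 pairs. Leaving out 1 library gave 0 to 3942 genes and 0 to 27 of the set lower. At an unadjusted p, 13 of the 21 were lower in genes averaging 5 FPKM or more, against 14.7% of all genes. Leaving out 1 library gave 15 to 31 lower and 0 to 2 higher, against 4.02% to 25.3% and 1.46% to 18.4% of all genes. In genes averaging 5 FPKM or more the set held 16 genes below and 2 above both controls, against 32.3% and 22.4%, and 2 of 46 were above after the adjustment, against 24.3%. The causes were not tested. The 46 genes rested on 24 to 4381 reads in a library.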
